A study of Mus musculus with 19 samples.

Results

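The genes described are the MYC oncogene Myc, its paralogues Mycn and Mycl1, their shared partner Max, and Mxd3 and Mxd4, which compete with MYC for MAX. They were taken by name from a table of expression values with 38424 entries and 19 libraries, and all 6 of 6 genes were found and reached at least 1 FPKM (mapped fragments scaled to transcript length and library size) in 2 or more libraries, a filter that 14942 entries passed. The set was chosen by Myc's own values, which were lower in the 3 knockdowns made in retinoic acid, so they are given as a description without a test. The question was whether its paralogues moved with it.

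The study knocked down long non-coding RNAs, and in 1 experiment the coding gene EVX1, by short hairpins in mouse embryonic stem cells during differentiation. For 12 libraries LIF, a cytokine that holds stem cells undifferentiated, was left out of a medium with fetal calf serum. These were a shCtrl and 2 shEvx1as libraries of CJ7 cells at day 4, a shCtrl and 2 shEVX1 libraries of CJ9 cells at day 4, 2 shCtrl and 2 shFendrr libraries of CJ9 cells at day 5, and 1 shCtrl and 1 shLhx1os library of CJ9 cells at day 6. The labels give the strain 129S4/SvJae for these cells. The other 7 libraries came from 46c cells given 5 nM retinoic acid for 4 days in N2B27 (a medium without serum that favours neural fates) and comprised 2 shCtrl, 2 shNr2f1as, 1 shSox21os and 2 shPou3f3os libraries. All cells, controls included, carried a hairpin, and neither the hairpin sequences nor the number of clones behind a library is given in the sources used here.

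MYC, MYCN and MYCL are basic helix-loop-helix leucine zipper factors that bind DNA only as dimers with MAX, at the E-box CACGTG, and raise the transcription of genes for ribosome assembly, nucleotide synthesis and cell growth. The MXD proteins, MNT and MGA pair with MAX at the same sites and recruit co-repressors. In embryonic stem cells MYC is maintained by LIF signalling, and MYCN is also abundant, also in neural progenitors, where it sustains proliferation.

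In the mm9 coordinates of the table, Myc lies at chr15:61816896-61821916, Mycn at chr12:12942899-12948642, Mycl1 at chr4:122673342-122679723, Max at chr12:78038256-78063235, Mxd3 at chr13:55426529-55431091 and Mxd4 at chr5:34519229-34530359. All 6 are protein-coding genes. Myc is split over 2 entries, the one named Myc and a second Myc transcript entry at the same locus, and reads that both transcripts share could have been divided between them. Mxd3 overlaps the end of Prelid1, and unless the counting used strand, which no label says, reads of the overlap cannot be told apart.

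RefSeq promoters (GRCm38.p6, 250 bases before to 50 after the start) matched 5 of the 6 genes, Myc not among them. They were searched on both strands for the E-box CACGTG, which MYC-MAX and MXD-MAX dimers bind, and for the E2F motifs TTTGGCGC, TTTCCCGC and TTTCGCGC, the sites of the factors that drive entry into S phase. The 3 promoters that hold a match are shown because they place the network's own binding motif, or that of E2F, at the start of its genes, with capitals marking the matches and 30 bases kept after the start. Max (chr12:76962219-76962498) and Mxd4 (chr5:34187681-34187960), both on the minus strand, hold 1 E-box each, which begins 3 bases before the start in Max and 219 bases before it in Mxd4. Mycn (chr12:12941807-12942086, minus strand) holds TTTGGCGC beginning 183 and 168 bases before the start, and the reverse complement of TTTCGCGC at 179 bases, which overlaps the first of them. The 30 bases after the start were found in a GENCODE transcript of the gene for Mxd4 and Mycn but not for Max. The distance in Max thus rests on the RefSeq start alone.
Max: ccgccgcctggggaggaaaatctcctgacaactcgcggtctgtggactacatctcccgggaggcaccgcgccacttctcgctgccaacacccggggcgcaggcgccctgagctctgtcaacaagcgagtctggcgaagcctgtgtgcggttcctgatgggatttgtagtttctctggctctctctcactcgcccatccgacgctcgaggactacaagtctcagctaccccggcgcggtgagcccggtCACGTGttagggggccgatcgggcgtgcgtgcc
Mxd4: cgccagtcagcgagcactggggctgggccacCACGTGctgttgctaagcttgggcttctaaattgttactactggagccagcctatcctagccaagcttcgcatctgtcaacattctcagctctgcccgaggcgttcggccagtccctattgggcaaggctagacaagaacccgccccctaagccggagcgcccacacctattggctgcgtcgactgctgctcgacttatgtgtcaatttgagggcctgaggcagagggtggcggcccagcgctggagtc
Mycn: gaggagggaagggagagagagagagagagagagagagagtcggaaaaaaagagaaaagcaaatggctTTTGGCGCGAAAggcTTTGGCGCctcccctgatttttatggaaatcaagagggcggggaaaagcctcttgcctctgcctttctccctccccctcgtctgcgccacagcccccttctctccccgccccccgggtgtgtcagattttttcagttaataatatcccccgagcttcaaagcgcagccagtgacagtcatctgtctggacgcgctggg

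The E-box stood in 7.15% of all 32851 promoters of the table, TTTGGCGC in 0.514% and TTTCGCGC in 0.323%. The promoters of Mycl1 and Mxd3 held none of these letters. A match describes the letters of the window and not a site in use.

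The libraries summed to 559050 to 655315 FPKM, with 12255 to 12825 entries at 1 FPKM or more. The targeted transcripts Evx1as (0.354 and 0.290 against 1.66 FPKM), Evx1 (30.2 and 37.0 against 53.9 FPKM) and Fendrr (0.358 and 0.0768 against 1.10 and 1.49 FPKM) were lower than in their controls. Lhx1os was listed at 0 against 0.0883 FPKM in its single control, too low a level to check the knockdown. The named Pou3f3os entry did not separate the shPou3f3os-labelled libraries (2.40 and 4.13 FPKM) from their controls (5.20 and 1.98 FPKM), and Nr2f1as and Sox21os could not be checked by name. Between the retinoic acid controls lay a wide gap in the summed level of 19 pluripotency genes (485 and 1372 FPKM), a range close to that of the knockdowns there (583 to 1307 FPKM). The summed level of 12 neural progenitor genes was 758 and 887 FPKM in these controls and at most 191 FPKM in the LIF-withdrawal libraries. Fewer cells of a type and less RNA per cell cannot be told apart in such bulk samples.

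Myc stood at 35.2 and 25.1 FPKM in the retinoic acid controls, at 7.70 and 8.48 FPKM in shNr2f1as, at 7.06 FPKM in shSox21os and at 7.38 and 11.1 FPKM in the shPou3f3os-labelled libraries. All 5 knockdown libraries lay below both controls and below every LIF-withdrawal library, where Myc ranged from 26.7 to 45.1 FPKM. The log2 change on the log2(FPKM + 1) scale was -1.76 ± 0.20 (SE) in shNr2f1as, -1.93 ± 0.25 in shSox21os and -1.61 ± 0.20 in shPou3f3os, places 16, 9 and 16 from the lowest of the 14942 entries. These 3 comparisons share both controls. As the rule chose Myc for these values, they carry no test, and their SE and places are a description only.

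The size of the difference turned on which control was used, because the controls themselves lay apart. In shNr2f1as the log2 change was -1.52 without control replicate 1 and -1.99 without replicate 2. Over all alternatives it lay between -1.99 and -1.52 in shNr2f1as, -2.17 and -1.69 in shSox21os, and -1.87 and -1.34 in shPou3f3os. The second Myc transcript entry was at 9.86 and 5.89 FPKM in the controls and at 2.41, 1.74, 1.87, 2.85 and 3.94 FPKM in the 5 knockdown libraries. With both entries summed, Myc was at 45.1 and 31.0 FPKM in the controls and between 8.93 and 15.1 FPKM in the knockdowns, so that the division of reads between the entries did not turn the difference. Between the knockdowns themselves Myc differed by -0.32 to 0.17 on the log2 scale, less than the distance of any of them from the controls.

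**Figure D1:**
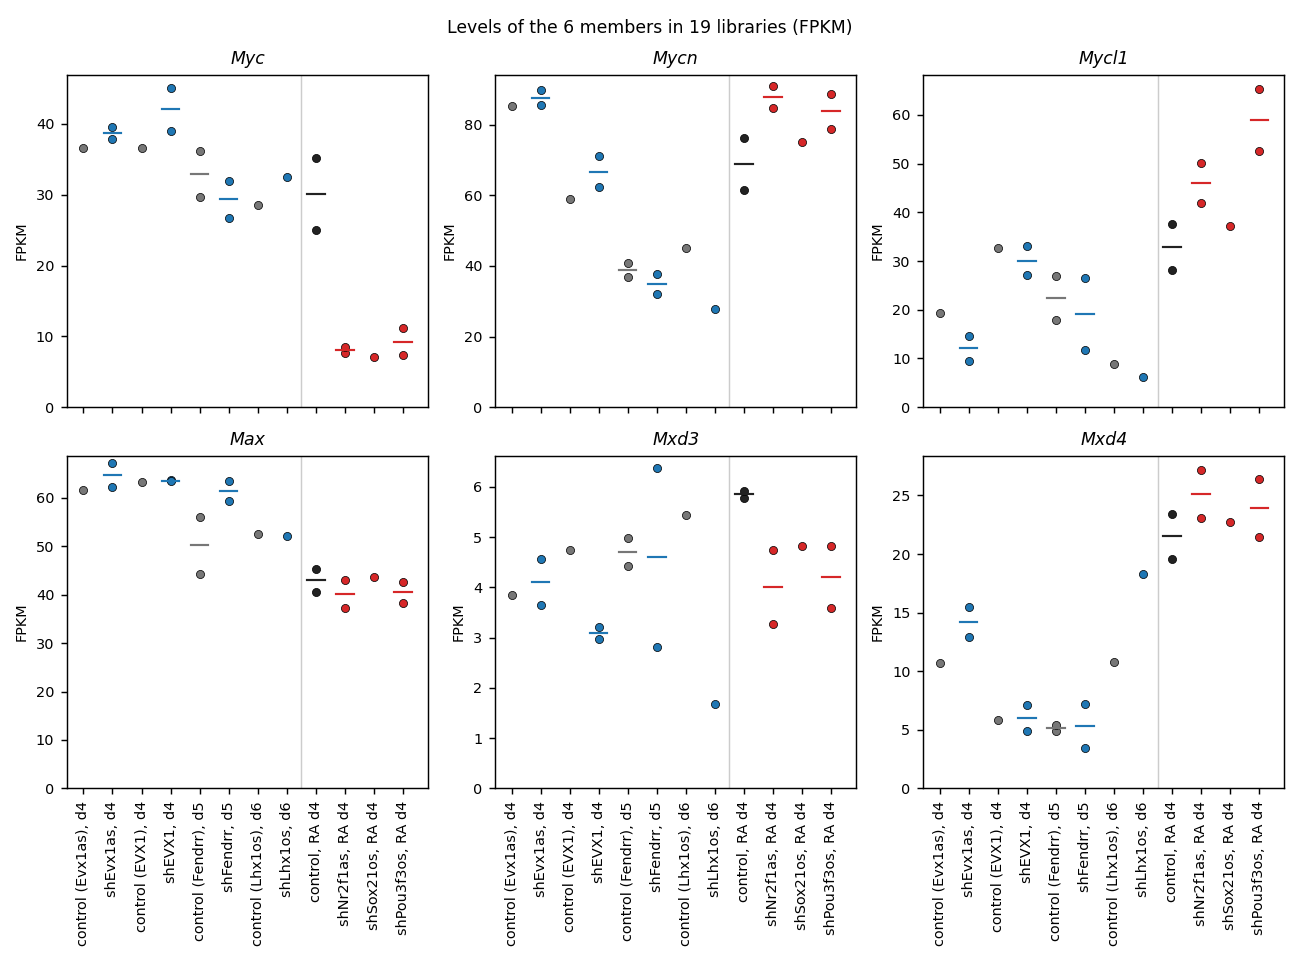
FPKM of Myc, Mycn, Mycl1, Max, Mxd3 and Mxd4 in each of 19 libraries, 1 point a library, with a bar at the mean of groups of 2. Grey and blue are LIF-withdrawal controls and knockdowns, black and red are retinoic acid (RA) controls and knockdowns, and d gives the day. Myc is at 7.06 to 11.1 FPKM in the 5 red libraries and at 25.1 FPKM or more in all others, while Mycn and Mycl1 are not lower there.

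Mycn, the most abundant MYC paralogue in these neural cultures, was at 61.6 and 76.2 FPKM in the retinoic acid controls. It was at 84.8 and 91.0 FPKM in shNr2f1as, at 75.2 FPKM in shSox21os and at 88.8 and 78.9 FPKM in the shPou3f3os-labelled libraries. Only the shSox21os library lay inside the range of the controls, and the other 4 lay above it. The log2 change was 0.35 (95% interval 0.06 to 0.65) in shNr2f1as, 0.13 (-0.23 to 0.50) in shSox21os and 0.28 (-0.01 to 0.58) in shPou3f3os. None passed limma's moderated test over all entries (adjusted p = 0.201, 0.82 and 0.259).

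Mycl1, now named Mycl, was at 37.6 and 28.3 FPKM in the controls. It reached 50.2 and 42.0 FPKM in shNr2f1as, 37.3 FPKM in shSox21os and 52.6 and 65.3 FPKM in the shPou3f3os-labelled libraries. The shNr2f1as and shPou3f3os libraries lay above both controls, and the shSox21os library between them. The log2 changes were 0.48 (-0.26 to 1.22), 0.19 (-0.72 to 1.09) and 0.83 (0.09 to 1.57), with limma adjusted p = 0.485, 0.91 and 0.191.

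Of the 5 genes other than Myc, 0 were called at an adjusted p of 0.05 in any of the 3 retinoic acid comparisons, where 0.676% of entries were called in shNr2f1as, 0.0669% in shSox21os and 2.32% in shPou3f3os. At an unadjusted p under 0.05, 2699, 1706 and 3109 of all 14942 entries passed in shNr2f1as, shSox21os and shPou3f3os. Of the 15 tests 2 passed at that level, Mycn in shNr2f1as and Mycl1 in shPou3f3os. Neither was called under any of the 13 alternatives run for each comparison, with adjusted p between 0.146 and 0.519 for Mycn and between 0.0728 and 0.579 for Mycl1.

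The 3 MYC paralogues together were at 129 to 134 FPKM in the retinoic acid controls and at 120 to 155 FPKM in the 5 knockdown libraries, so the summed levels overlapped. The entry named Myc made up 19.4 to 26.2% of that sum in the controls and 4.96 to 7.16% in the knockdowns. In the LIF-withdrawal libraries its share was 25.9 to 39.7% in controls and 27.4 to 48.9% in knockdowns. The share follows from the Myc values that chose the set and is a description.

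**Figure D2:**
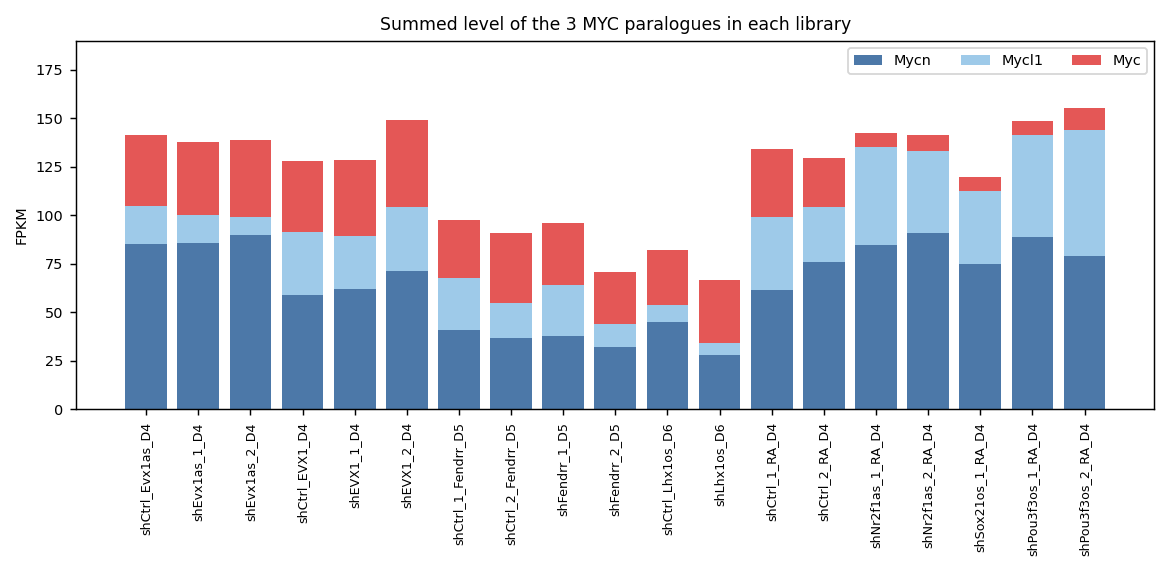
Stacked FPKM of Mycn, Mycl1 and Myc in each of 19 libraries, named as in the labels. The red segment, the entry named Myc, is 4.96 to 7.16% of the bar in the 5 retinoic acid knockdowns. The whole bar there (120 to 155 FPKM) overlaps that of the controls (129 to 134 FPKM). The second Myc entry is not in the bars.

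Max, the obligate partner, varied least of the 6 genes, by 1.80 times between its lowest and highest library. It was at 45.4 and 40.6 FPKM in the controls with retinoic acid and between 37.3 and 43.6 FPKM in the knockdowns there, which overlapped them. Its log2 changes were -0.09, 0.02 and -0.08 (SE 0.13, 0.16 and 0.13). In every library of the retinoic acid knockdowns Max was thus at several times the level of Myc and below that of Mycn, on the per-length FPKM scale.

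Mxd3, which marks cycling progenitors, was at 5.78 and 5.91 FPKM in the controls, at 4.74 and 3.27 FPKM in shNr2f1as, at 4.83 FPKM in shSox21os and at 4.82 and 3.59 FPKM in the shPou3f3os-labelled libraries. All 5 knockdown libraries lay below both controls, as did 12.6% of all entries, and no change passed (adjusted p = 0.395, 0.846 and 0.427 by limma). The log2 changes were -0.47 ± 0.27, -0.23 ± 0.33 and -0.41 ± 0.27 (SE). Summed over 18 proliferation genes the level was 1553 to 1669 FPKM in the controls and 1347 to 1578 FPKM in the knockdowns, and its part in the Mxd3 values was not tested.

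Mxd4, a family member of cells that leave the cycle, was at 19.6 and 23.4 FPKM in the controls and at 27.2, 23.1, 22.7, 26.4 and 21.5 FPKM in the knockdowns, in the order given above. The groups overlapped. Its log2 changes of 0.22, 0.08 and 0.14 were smaller than their standard errors of 0.26, 0.32 and 0.26.

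**Figure D3:**
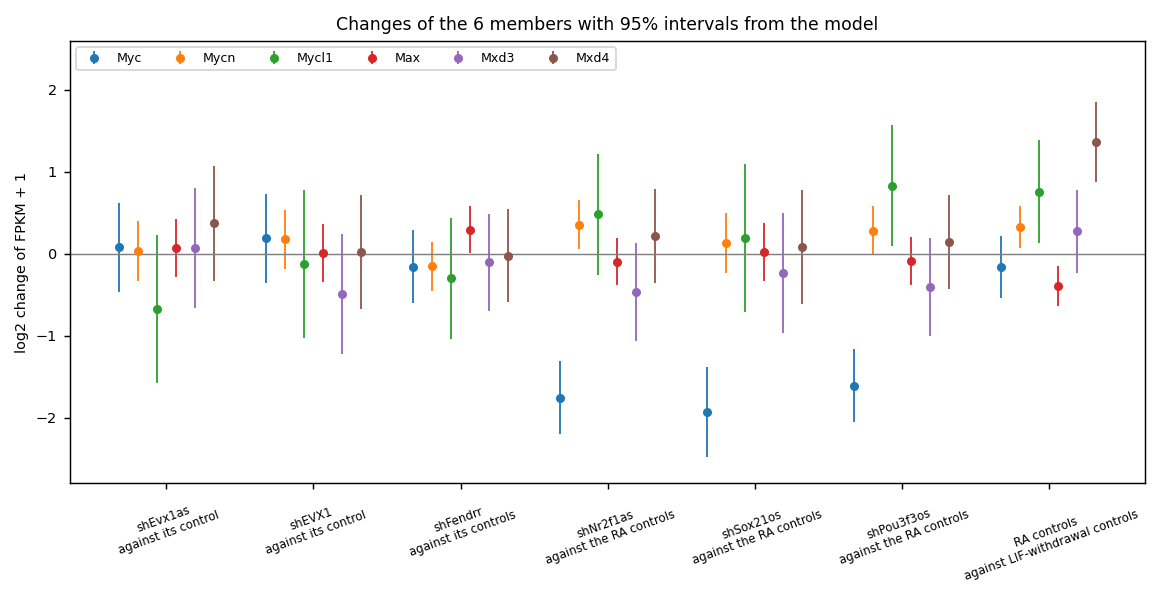
Log2 change of FPKM + 1 for the 6 genes in 6 knockdown comparisons and between the control cultures, with 95% intervals from the limma model over 19 libraries. Myc is at -1.61 to -1.93 in the 3 retinoic acid (RA) knockdowns, where its values chose the set. Its intervals there are drawn as a description and are not to be read as a test against 0. Mycn is at 0.13 to 0.35 and Mycl1 at 0.19 to 0.83 there, and neither passed the adjusted test.

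Of the 7 other genes of the network, Mnt and Mga encode further MAX-binding repressors, Mxd1 and Mxi1 further MXD proteins, and Mlx, Mlxip and Mlxipl the parallel MLX branch that senses glucose metabolites. None of the 7 was called by limma in a retinoic acid knockdown. At an unadjusted p under 0.05 Mga passed in all 3 and Mnt in shNr2f1as and shPou3f3os. Of all 14942 entries 2699, 1706 and 3109 passed at that level in shNr2f1as, shSox21os and shPou3f3os. Mga, Mnt, Mxd1 and Mxi1 lay above both controls in all 5 knockdown libraries, 4 of 7, where 15.8% of all entries did. The 5 libraries are set against the same 2 controls, so 1 low control pair serves all of them.

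Mnt was at 36.4 and 39.3 FPKM in the controls and at 47.3, 47.6, 43.3, 50.7 and 41.2 FPKM in the knockdowns, with log2 changes of 0.32, 0.19 and 0.27 (limma adjusted p = 0.197, 0.669 and 0.24). Mga was at 2.27 and 1.08 FPKM in the controls and between 3.09 and 3.34 FPKM in the knockdowns, with log2 changes of 0.69, 0.65 and 0.72 (adjusted p = 0.125, 0.364 and 0.0854). Mxi1 was at 4.38 and 5.01 FPKM in the controls and between 6.14 and 7.01 FPKM in the knockdowns. Mxd1 stayed at or below 1.30 FPKM in every retinoic acid library, a level at which small absolute differences separate the groups.

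**Figure D4:**
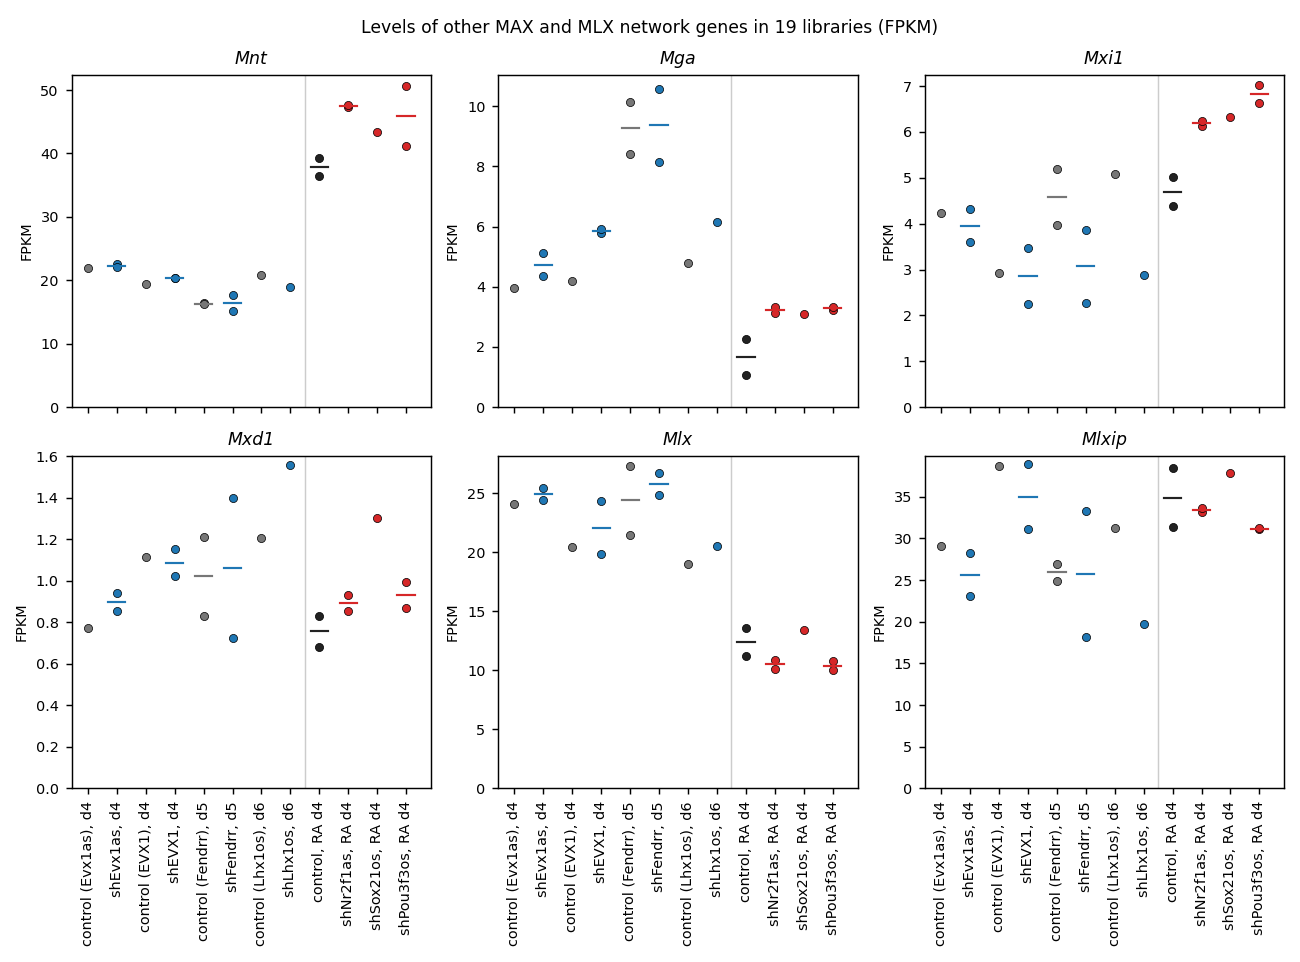
FPKM of Mnt, Mga, Mxi1, Mxd1, Mlx and Mlxip in each of 19 libraries, drawn as for the 6 genes above, with points for libraries and bars for means of groups of 2. The 5 red retinoic acid knockdown points of Mnt, Mga, Mxi1 and Mxd1 lie above both black control points, and none of these genes passed the adjusted test.

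Genes known as MYC targets were taken as 2 lists, 31 genes of the nucleolus and ribosome assembly and 29 of metabolism and the cell cycle, and all were measured. The nucleolar genes had a median log2 change of -0.35 in shNr2f1as, -0.27 in shSox21os and -0.40 in shPou3f3os, where the median over all entries was 0.04, 0.03 and 0.04. In the same order 28, 24 and 27 of the 31 were below 0. The metabolic genes had medians of -0.20, -0.14 and -0.24, with 23, 22 and 21 of 29 below 0. Of the nucleolar genes 20 of 31, and of the metabolic genes 14 of 29, lay below both controls in all 5 knockdown libraries, against 12.6% of all entries.

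Few of these changes passed for single genes. In shNr2f1as, Rrs1, a regulator of ribosome assembly, and Hspd1, the mitochondrial chaperonin, were called lower, and no list gene was called higher. Of all entries 0.254% were called lower there and 0.422% higher. Rrs1 was at 67.9 and 75.6 FPKM in the controls and at 42.4 and 49.4 FPKM in shNr2f1as (log2 change -0.64 ± 0.12 SE, limma adjusted p = 0.0458). Hspd1 was at 244 and 243 FPKM in the controls and at 142 and 148 FPKM there (-0.74 ± 0.13, adjusted p = 0.0433). In shSox21os 0 genes of either list were called by limma, while 12 nucleolar and 10 metabolic genes had an unadjusted p under 0.05, as did 1706 of all entries.

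In the shPou3f3os-labelled libraries, where 0.716% of entries fell and 1.6% rose, 7 nucleolar genes fell, Nolc1, Rrs1, Bop1, Rrp12, Rrp9, Nop2 and Wdr43, which serve ribosomal RNA transcription, processing and modification. Nolc1 was at 151 and 172 FPKM in the controls and at 94.2 and 98.7 FPKM there (log2 change -0.74 ± 0.12, adjusted p = 0.0258). Of the metabolic genes Srm, the spermidine synthase, was at 176 and 219 FPKM against 89.9 and 102 FPKM (-1.03 ± 0.16, adjusted p = 0.025), and Hspd1 and Apex1, the DNA repair endonuclease, fell too.

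The change was not in 1 direction. Dkc1, the pseudouridine synthase, Npm1, nucleophosmin, and Paics, an enzyme of purine synthesis, rose in the shPou3f3os-labelled libraries. Dkc1 was at 9.32 and 4.39 FPKM in the controls and at 24.9 and 25.4 FPKM there (1.81 ± 0.29, adjusted p = 0.0258), and Npm1 at 283 and 127 FPKM against 474 and 535 FPKM. The controls differed by more than 2-fold in both of these genes. Log2 changes of Dkc1, Npm1 and Paics were 1.34, 1.23 and 0.92 in shNr2f1as and 1.62, 1.25 and 1.00 in shSox21os, without a call. In every retinoic acid knockdown library they lay above both controls, as did 15.8% of all entries. The retinoic acid controls were lower than the LIF-withdrawal controls, with log2 changes of -1.87, -2.11 and -1.62. Cell line and medium differ together there. Npm1 has many processed copies in the genome, whose reads the counting could have divided.

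These calls rest on the pooled spread of all 19 libraries and on both controls. For the nucleolar list in shPou3f3os, the calls of 2 higher and 7 lower became 0 when the retinoic acid libraries were modelled alone, and also without control replicate 2 or without either shPou3f3os library. They became 2 higher and 10 lower without control replicate 1, 2 higher and 11 lower with libraries scaled to the same upper quartile, and 0 higher and 5 lower with any value above 0 kept. The metabolic calls there, 1 higher and 3 lower, also became 0 with the retinoic acid libraries modelled alone, without control replicate 2 and without either shPou3f3os library, and 0 higher and 2 lower with any value above 0 kept. In shNr2f1as the calls of Rrs1 and Hspd1 were both lost with the retinoic acid libraries modelled alone, with no trend in the variance prior, with any value above 0 kept, without control replicate 2 and without either shNr2f1as library. Without control replicate 1 there were 2 higher and 3 lower nucleolar calls and 2 higher and 1 lower metabolic calls in that comparison. The nucleolar medians kept their sign in every alternative, between -0.44 and -0.33 in shPou3f3os, -0.37 and -0.26 in shNr2f1as and -0.31 and -0.23 in shSox21os.

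The E-box stood in the promoters of 5 of the 26 nucleolar genes matched and 10 of the 26 metabolic genes matched, against 8.09% of all 27025 genes of the promoter table. It occurred in genes that fell and in a gene that rose. A 46-base stretch around it is shown for 3 genes that fell and for Paics, which rose, with the E-box in capitals. These lie at chr1:55088298-55088343 on the minus strand (Hspd1) and, on the plus strand, at chr6:125131803-125131848 (Nop2), chr14:50924905-50924950 (Apex1, the first of its 3) and chr5:76951079-76951124 (Paics), in GRCm38.p6.
Hspd1: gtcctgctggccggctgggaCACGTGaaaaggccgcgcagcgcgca
Nop2: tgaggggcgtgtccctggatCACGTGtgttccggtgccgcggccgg
Apex1: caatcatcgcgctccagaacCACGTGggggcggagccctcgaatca
Paics: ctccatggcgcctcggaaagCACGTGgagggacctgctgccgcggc

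Summed over the list, the nucleolar genes were at 3037 and 3232 FPKM in the controls and at 2682 to 2870 FPKM in the 5 knockdowns. The metabolic genes were at 5033 and 5187 FPKM against 4231 to 4746 FPKM. In neither list did the ranges of controls and knockdowns overlap. This was not particular to MYC targets. The sums of MYC cofactors, also lower in the knockdowns, did not overlap either. Nor did those of the neuron, fibroblast and other MAX network lists, which were higher. Of 8 genes that MYC is known to lower, among them the cell cycle inhibitors Cdkn1a and Cdkn1b, 0 were called by limma, with medians of 0.29, 0.15 and 0.12. At an unadjusted p under 0.05, 2, 2 and 1 of the 8 passed, as did 2699, 1706 and 3109 of all 14942 entries. They did not share a direction. Cdkn1a was at 101 and 78.03 FPKM in the controls and lower, at 51.7 to 73.1 FPKM, in all 5 knockdown libraries (log2 changes -0.51, -0.77 and -0.35, limma adjusted p = 0.225, 0.302 and 0.365). Gadd45b, a growth arrest gene, was the other gene that passed, with log2 changes of 1.71, 1.18 and 1.40 (adjusted p = 0.0589, 0.353 and 0.0665).

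Other lists also differed between these controls and knockdowns. The neuron list summed to 131 and 135 FPKM in the controls and to 146 to 241 FPKM in the knockdowns. Stmn2 of that list rose in shNr2f1as (log2 change 1.59, limma adjusted p = 0.0323) and shPou3f3os (1.09, adjusted p = 0.0477), while Tubb3 changed by -0.18, -0.02 and -0.67. Dab2 of the endoderm list rose in both (1.46 and 1.42, adjusted p = 0.0401 and 0.0275). MYC cofactors summed to 775 FPKM in both controls and to 694 to 722 FPKM in the knockdowns. Of 11 fibroblast and feeder genes 5 reached 1 FPKM in a retinoic acid library, and the list summed to 20.5 and 41.8 FPKM in the controls and to 60.8 to 148 FPKM in the knockdowns. Acta2, smooth muscle actin, was at 30.7 and 8.59 FPKM in the controls and at 39.6 to 100.3 FPKM in the knockdowns, and did not pass. Col1a2, a collagen I chain, was at 3.26 and 2.42 FPKM in the controls and at 4.44 to 12.7 FPKM in the knockdowns, above both controls in all 5. It rose in shNr2f1as (log2 change 1.41, limma adjusted p = 0.0433) and shPou3f3os (1.14, adjusted p = 0.044), and in shSox21os its change was 0.51 (adjusted p = 0.561). Of all entries 0.422% were called higher in shNr2f1as and 1.6% in shPou3f3os. Col1a1, the other chain, was also above both controls in all 5 libraries, as were 15.8% of all entries. Its log2 changes of 2.03, 1.15 and 1.36 did not pass (limma adjusted p = 0.0757, 0.513 and 0.153). Thy1, also on the list, had log2 changes of 0.63, 0.97 and 0.18. Twist2 went the other way, with -0.40, -0.71 and -0.74, and neither gene passed. Acta2 held 100.3 of the 148 FPKM of the highest sum and 8.59 of the 20.5 FPKM of the lowest. The defining genes Dcn, Lum, Postn and Fap were at or below 0.0617 FPKM in all 7 libraries. Of the LIF and STAT3 targets Pim3, a kinase, was the only gene called, and it rose in shNr2f1as from 19.7 and 18.8 to 36.1 and 46.2 FPKM (log2 change 1.05, adjusted p = 0.0433). The part of these genes in the Myc values was not tested.

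**Figure D5:**
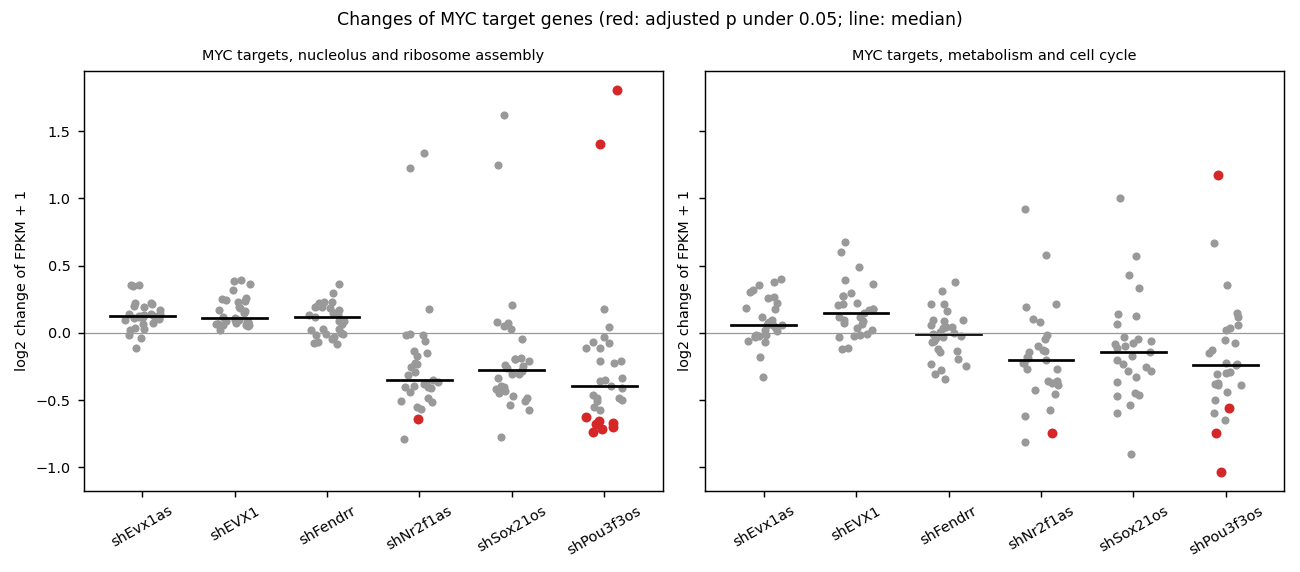
Log2 change of FPKM + 1 for 31 nucleolar and 29 metabolic MYC target genes in 6 knockdowns against their controls, 1 point a gene. Red points have an adjusted p under 0.05 by limma and black lines are medians, which are -0.35, -0.27 and -0.40 for the nucleolar genes in the 3 retinoic acid knockdowns and 0.11 to 0.12 in the 3 LIF-withdrawal knockdowns.

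In the LIF-withdrawal experiments Myc was not part of the rule and could be tested. It was at 36.5 FPKM in the control and at 37.8 and 39.6 FPKM in shEvx1as, and at 36.7 FPKM in the control and at 39.0 and 45.1 FPKM in shEVX1. At day 5 it was at 29.7 and 36.1 FPKM in the controls and at 31.9 and 26.7 FPKM in shFendrr. The log2 changes of 0.08, 0.19 and -0.16 (SE 0.25, 0.25 and 0.20) did not pass (adjusted p = 1, 1 and 0.909 by limma).

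None of the 6 genes was called by limma in these 3 comparisons, where 0.00669% of entries were called in shEvx1as, 0.00669% in shEVX1 and 0.147% in shFendrr. Mycn was at 85.3 FPKM in the control and at 85.5 and 89.8 FPKM in shEvx1as, at 58.8 against 62.3 and 71.1 FPKM in the EVX1 experiment, and at 40.8 and 36.8 against 37.8 and 32.0 FPKM in the Fendrr experiment. The Mycn level thus varied more between experiments than within any of them. Mycl1 was at 19.4 FPKM in the Evx1as control and at 14.7 and 9.41 FPKM in the knockdown, a log2 change of -0.68 (95% interval -1.58 to 0.23) that did not pass. Max in shFendrr (63.6 and 59.3 against 44.3 and 56.1 FPKM) had an unadjusted p of 0.0465 and an adjusted p of 0.7 by limma.

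Of the 31 nucleolar MYC targets 28 lay above 0 in shEvx1as, 31 in shEVX1 and 22 in shFendrr, with medians of 0.12, 0.11 and 0.12, and 0 were called by limma in any of them. Of all entries 59.6, 60.9 and 49.8% lay above 0 in the same comparisons, with medians of 0.05, 0.05 and 0. At an unadjusted p under 0.05, 0, 1 and 1 of these genes passed, and 654, 496 and 1051 of all entries.

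The Lhx1os experiment has 1 library an arm and no replicate check. Mxd3 had 1.68 FPKM in the shLhx1os library against 5.43 FPKM in the control, a ratio of 0.310, and was the 1 gene of 6 past a 2-fold difference, which 13.4% of the entries with at least 5 FPKM in a library passed. Mycn was at 27.8 against 45.0 FPKM, Mycl1 at 6.18 against 8.86 FPKM, Myc at 32.5 against 28.5 FPKM, Max at 52.1 against 52.5 FPKM and Mxd4 at 18.3 against 10.7 FPKM.

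For the 5 genes other than Myc, each pair of the 6 tested knockdown effects was compared directly, 75 differences in all. None was called, against 0.00937% of entries over the same comparisons, 4 had an unadjusted p under 0.05, and the smallest adjusted p was 0.267. No knockdown was thus told apart from another by these 5 genes.

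Between the 2 retinoic acid controls and the 5 LIF-withdrawal controls the members did differ, but cell line, medium and, for some controls, day differ together there and their effects cannot be told apart. By limma 59.8% of all entries were called in that comparison, and 4 of the 5 genes other than Myc. Mxd4 was at 19.6 and 23.4 FPKM in retinoic acid and at 4.90 to 10.7 FPKM in the LIF-withdrawal controls, higher by 1.37 ± 0.22 on the log2 scale (adjusted p = 0.00032), and it was called in 12 of 12 alternatives.

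Mycl1 (log2 change 0.76, adjusted p = 0.0383) and Mycn (0.33, adjusted p = 0.0288) were higher in retinoic acid and Max was lower (-0.39, adjusted p = 0.0109). These 3 calls were lost without control replicate 2 of the retinoic acid experiment. Of the 12 alternatives Mycl1 was called in 8, and Mycn and Max in 10 each. Mxd3 was not called (0.28, adjusted p = 0.319). Myc, whose retinoic acid controls entered the rule, was at 35.2 and 25.1 FPKM against 28.5 to 36.7 FPKM, so the controls of the 2 cultures overlapped.

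Of the other network genes Mnt was higher in the retinoic acid controls (0.92, limma adjusted p = 2.3e-05), and Mga (-1.26, adjusted p = 0.00012) and Mlx (-0.78, adjusted p = 0.00035) were lower. Mlxip, Mlxipl, Mxd1 and Mxi1 were not called, where 59.8% of all entries were. Mnt was at 36.4 and 39.3 FPKM in retinoic acid and between 15.2 and 22.6 FPKM in all 12 LIF-withdrawal libraries, without overlap.

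On the FPKM scale, with medians over the 5 LIF-withdrawal controls, the order was Max (56.1), Mycn (45.0), Myc (36.1), Mycl1 (19.4), Mxd4 (5.79) and Mxd3 (4.75). Each gene overlapped its neighbour in that order, except Mycn and the entry named Myc, whose ranges met without overlap (lowest Mycn 36.8, highest Myc 36.7). The place of Myc there rests on that entry alone. With the second Myc entry added, Myc was at 34.7 to 53.4 FPKM in these controls and overlapped Mycn. It lay above Mycn in the Fendrr controls (41.1 and 50.9 against 40.8 and 36.8 FPKM) and below it in the other controls. In the 5 retinoic acid knockdowns it was Mycn (84.8), Mycl1 (50.2), Max (42.7), Mxd4 (23.1), Myc (7.70) and Mxd3 (4.74). Only Mycl1 and Max overlapped there among neighbours.

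The genes whose log2(FPKM + 1) was most like that of Myc over all 19 libraries, of 9241 candidates that reached 5 FPKM in 2 or more libraries, were Dcun1d5 (Pearson r = 0.908), Aars (0.906), Exosc6 (0.895), Mrpl46 (0.890) and Chchd4 (0.876). Dcun1d5 was the 1 gene of these that was also among the first 5 when deviations from the mean of each kind of culture were used. Bend3 and Rpl32 were most like Mycn (r = 0.942 and 0.929). Parp16, Lin28b and Smarce1 were most like Mycl1 (0.931, 0.928 and 0.921), M6pr, Nt5dc3 and Oxnad1 most like Max (0.932, 0.930 and 0.928). For Mxd3 they were Bub1b, Hmgn5 and Lmnb1 (0.779, 0.765 and 0.750), and for Mxd4 Nckap5l, Npdc1 and Tob1 (0.957, 0.952 and 0.942). The libraries share cell line, medium and day within an experiment, so these values describe a joint pattern over few independent conditions.

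Among the 6 genes, Myc had r = 0.777 with Max, -0.674 with Mxd4, -0.596 with Mycl1 and -0.403 with Mycn over the 19 libraries. These values include the retinoic acid Myc levels that chose the set, and other members also differ between the cultures. They are a description. Pvt1, the long non-coding RNA gene beside Myc, chosen after its values were seen, was at 0.0323 to 0.262 FPKM in the retinoic acid libraries and at 0.360 to 1.71 FPKM in the LIF-withdrawal libraries.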

How the data were processed

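Per the labels' protocols, mRNA was purified on beads and sequenced from stranded libraries. The authors deposited FPKM values, 1 column a library, and CASAVA and TopHat2 2.0.11 are named in the submitters' processing notes, with the builds mm10 and mm9. The quantifier and annotation were not given in the sources used here. Positions include 116 on mm9-style random chromosomes, and 5.10% of 19219 matched coding genes ended within 1000 bp of their GRCm38 position, so they are printed as mm9. Read counts were not used, so the depth is unknown. Steps between low values, taken as whole fragments, put the depth of the other libraries at 0.923 to 1.28 times that of 1 of them.

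The log2(FPKM + 1) scale was used, on which changes of low genes are understated. The filter (1 FPKM or more in 2 or more libraries) left 14942 of 38424 entries. With limma 3.58.1 (R 4.3.3), 12 group means were fitted to the 19 libraries, under a prior on the variance with a trend on the mean. The 7 groups of 2 libraries gave 7 residual degrees of freedom, and the 5 groups of 1 library were assumed to vary like the others. Tests were two-sided, with Benjamini-Hochberg adjustment over all entries at 0.05. They were also tried on simulated data in which the libraries varied independently. Such data cannot show how an offset shared by the libraries of a group affects the calls. Whether numbered libraries came from separate cultures is not stated in the labels, so p-values measure the spread between these libraries, which may be technical. The genes, the lists and the rules for naming were chosen with earlier results of these data known. All members and all other network genes were named, and of each list up to 4 genes a comparison, called ones first. Where more called genes of a list are named, this goes beyond that rule. So do Pvt1, the second Myc transcript entry, Gadd45b, Col1a1, Thy1, Twist2 and the genes named for their low level. These were chosen after their values were seen. Alternatives changed the pseudocount (0.1), the filter, the scaling, the variance prior, the libraries modelled and the libraries left out, and summing both Myc entries was added after seeing the data.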

Additional observations from a re-analysis of the deposited data

How the results depend on the processing

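Outside the culture comparison, none of the tested members was called under any alternative, and Myc in retinoic acid was not tested. The number of entries called over the whole table moved more. With a pseudocount of 0.1 it was 0 in shEvx1as, 0 in shEVX1 and 1 in shFendrr. With any value above 0 kept it was 213, 136, 87, 47, 216 and 161 in shEvx1as, shEVX1, shFendrr, shNr2f1as, shSox21os and shPou3f3os. With at least 5 FPKM required it was 0, 0 and 6 in the first 3. With no trend in the variance prior it was 2 in shEvx1as and 54 in shNr2f1as. With each experiment modelled alone it was 0 in shEvx1as, shEVX1, shFendrr, shNr2f1as and shPou3f3os, where fewer libraries give the spread. Leaving out 1 library gave 2 to 4 in shEvx1as, 0 in shEVX1, 2 to 231 in shFendrr, 43 to 391 in shNr2f1as, 29 to 186 in shSox21os and 0 to 1240 in shPou3f3os. The cause was not tested. The members called between the control cultures were 4, 2 with the controls modelled alone and 1 to 4 with 1 library left out.

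Uncalled log2 changes of members near 0 changed sign. Scaling to the same upper quartile gave -0.031 for Mycn and -0.00038 for Max in shEvx1as, and -0.040 for Max and -0.016 for Mxd4 in shEVX1. Scaling to the same total gave -0.0052 for Max in shEVX1 and 0.016 for Mxd4 in shFendrr. Both day-4 controls as 1 group gave -0.054 for Mxd3 in shEvx1as and -0.089 for Mycn, 0.24 for Mycl1 and -0.37 for Mxd4 in shEVX1. Leaving out 1 library gave -0.058 to 0.20 for Mxd3 in shEvx1as, -0.26 to 0.018 for Mycl1 and -0.21 to 0.25 for Mxd4 in shEVX1, and -0.85 to 0.25 for Mycl1, -0.58 to 0.37 for Mxd3 and -0.46 to 0.42 for Mxd4 in shFendrr. It gave -0.20 to 0.0056 for Max in shNr2f1as, and -0.019 to 0.28 for Mycn, -0.0097 to 0.39 for Mycl1, -0.056 to 0.10 for Max and -0.040 to 0.20 for Mxd4 in shSox21os. Myc between the control cultures ranged from -0.40 to 0.072.

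Replicate numbers do not pair the libraries by the labels, and the correlation of same-numbered deviations lay between -0.05 and 0.35. With the replicate number as a replicate block, 331 entries were called in shNr2f1as and 813 in shPou3f3os, and of the 5 members other than Myc none was called. The FPKM values come without read counts, so the counting error of rare transcripts could not be given.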
